A study of Homo sapiens with 16 samples.

Results

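The step from 0.5 h to 1.5 h of phorbol 12-myristate 13-acetate (PMA) treatment in K562 cells was described from 4 of 16 RNA-seq libraries, the 2 libraries of the 0.5 h group and the 2 of the 1.5 h group, which were chosen by their time labels. K562 is an established human leukaemia cell line, and PMA is used to push it towards a megakaryocyte-like state. All groups were K562 cells with a wild-type genotype and were grown in RPMI with fetal bovine serum, and all carry the PMA label at 25 nM. The 0.5 h group had received PMA for 30 min and the 1.5 h group for 90 min, and the series also covers 0, 3, 6, 24, 48 and 72 h. Total RNA was depleted of ribosomal RNA before sequencing. The labels do not say whether replicates were separate cultures, so p-values measure only the spread between libraries. That spread was estimated from all 16 libraries, not from the 4 alone. A single cell line limits the groups as a model of blood cells.

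PMA mimics diacylglycerol and activates protein kinase C, which signals through RAS and the ERK kinases and through NF-kB. Cells answer such a signal first with immediate-early genes, many of them transcription factors such as EGR1 and FOS that are transcribed without new protein synthesis. Later genes include the targets of those factors, secreted proteins, and feedback inhibitors such as the DUSP phosphatases and Sprouty proteins that dampen ERK signalling.

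The 4 libraries held 32154373 to 35586253 estimated reads, against 27285773 to 54056289 over all 16 libraries. The K562 erythroid genes were present in all 4, with HBG2 at 603 to 683 CPM and GATA1 at 85.4 to 97.6 CPM. CPM, the usual scaled count, is a gene's estimated reads relative to the scaled library size, and it follows transcript length, so levels were compared between libraries and not between genes. Log2 CPM profiles of replicates correlated across genes at r = 0.993 (0.5 h) and r = 0.991 (1.5 h), genes not being independent replicates. The root-mean-square difference in log2 CPM was 0.403 and 0.435 between replicates and 0.591 to 0.625 between the groups. Mitochondrial genes took 2.32 to 4.06% of reads. The gap between transcript length and effective length, which stands for fragment length, was 213 and 210 nt in replicate 1 and 248 and 239 nt in replicate 2, so it differed between replicate numbers and much less between the groups. In bulk RNA, fewer cells of a type and less RNA per cell cannot be told apart.

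Genes that rose outnumbered and outsized those that fell. At an adjusted p under 0.05 (edgeR quasi-likelihood test, Benjamini-Hochberg adjustment), 1014 of 17559 genes tested were called (5.77%), of which 721 rose (4.11%) and 293 fell (1.67%). All called genes had groups that did not overlap, so this trait, where given below for a called gene, adds nothing to its call. Among all genes tested, 4412 did not overlap in the higher direction (25.1%) and 5226 in the lower (29.8%). The median rise of called genes was 2.30-fold, and 411 rose by at least 2-fold, 213 by at least 4-fold and 48 by at least 16-fold. The median fall was 1.58-fold, with 66 genes down by at least 2-fold and 10 by at least 4-fold. Of the genes that rose, 170 had a mean under 1 CPM, where few reads stand behind the fold. Tested against a 2-fold change, 147 genes rose and 3 fell. Rises made up 71.1% of the calls with TMM scaling and 58.0% with libraries scaled to their total counts, which moved the median log2 fold change of all genes from -0.02 to -0.09. Leaving out 0.5 h replicate 1 gave 435 calls and leaving out 0.5 h replicate 2 gave 476, while leaving out 1.5 h replicate 1 gave 427 and 1.5 h replicate 2 gave 616, the lone library being assumed to vary like the other groups.

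**Figure D1:**
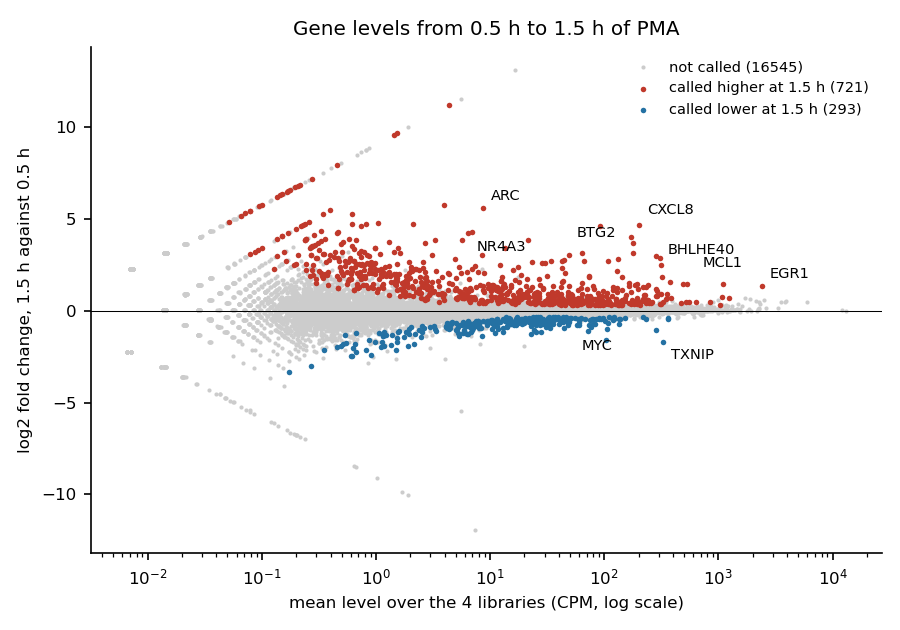
Mean level over the 4 libraries (CPM, log scale) against the log2 fold change of 1.5 h over 0.5 h for each of 17559 genes, each a point. The 721 genes called higher (red) reach far larger changes than the 293 called lower (blue), and EGR1 combines a high level with a change of 1.34.

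The largest rises among genes of at least 5 CPM were those of ARC, an activity-regulated cytoskeletal protein, CXCL8, a neutrophil chemokine, and TRIB1, a pseudokinase that helps degrade target proteins. ARC was at 0.370 and 0.315 CPM in the 0.5 h libraries and 21.5 and 12.3 CPM in the 1.5 h libraries (log2 fold change 5.61 ± 0.37, SE, adjusted p = 5.67e-07). CXCL8 (chr4:73740506-73743716, GRCh38) was at 13.4 and 16.3 CPM at 0.5 h and 372 and 403 CPM at 1.5 h, a 26.1-fold rise (log2 4.71 ± 0.15, adjusted p = 3.44e-10). TRIB1 went from 7.61 and 6.56 CPM to 187 and 165 CPM (log2 4.63 ± 0.12, adjusted p = 5.78e-11). In each of these genes the lowest 1.5 h library lay more than 10 times above the highest 0.5 h library. BTG2, an antiproliferative protein that recruits the deadenylase complex, had 19 and 19.9 CPM at 0.5 h and 323 CPM in both libraries at 1.5 h (log2 4.05 ± 0.11, adjusted p = 5.78e-11). Its replicates stayed close together in each group.

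Other genes with the largest rises have known roles in neurons, germ cells or signalling. MDGA1, a membrane-anchored adhesion protein, rose from 0.739 and 0.573 CPM to 15.1 and 11.2 CPM (log2 4.31 ± 0.20). TEX14, a protein of germ cell bridges, rose from 0.555 and 0.889 CPM to 13 and 8.14 CPM (log2 3.88 ± 0.27), and VGF, a neuropeptide precursor, from 2.32 and 2.18 CPM to 28.2 and 20.8 CPM (log2 3.44 ± 0.30). None of the 1.5 h libraries overlapped the 0.5 h libraries in these genes, and replicate 1 was the higher library at 1.5 h in all of them. ZDHHC11, which encodes a palmitoyltransferase and overlaps BRD9 on the same strand, rose from 1.77 and 1.86 CPM to 17.5 and 13.1 CPM (log2 3.08 ± 0.19). The most abundant transcript of MDGA1 spanned only 3.27 kb within the gene at chr6:37630679-37699306. That of ZDHHC11 spanned only 1.285 kb within the gene at chr5:795606-850986. Counts were summed over transcripts, so a rise of the full-length mRNA was not shown for these genes.

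**Figure D2:**
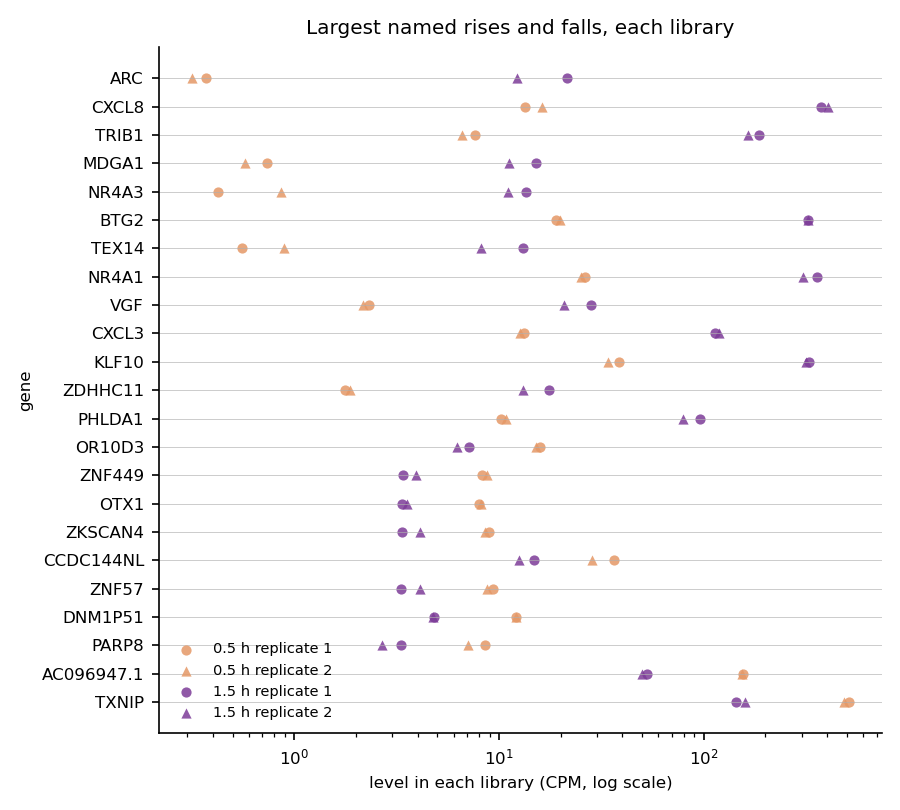
Level in each of the 4 libraries (CPM, log scale) of 13 of the 14 largest rises and the 10 largest falls among called genes of at least 5 CPM, circles for replicate 1 and triangles for replicate 2. The genes were chosen among those whose 0.5 h (orange) and 1.5 h (purple) libraries do not overlap. The falls, led by TXNIP at 512 and 485 against 143 and 160 CPM, are smaller than the rises.

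Of the immediate-early transcription factors, 25 of 26 listed were tested. Of these, 21 rose and 1 fell (against 4.11% and 1.67% of all genes), and 3 were not called. The median log2 fold change was 1.44 against -0.02 for all genes. The median was 1.51 within replicate 1 and 1.44 within replicate 2. EGR1 was already at 1278 and 1422 CPM at 0.5 h and reached 3218 and 3632 CPM at 1.5 h (log2 1.34 ± 0.19, adjusted p = 0.000559), well apart in both replicates. EGR1 lies at chr5:138465490-138469315, and the 250 bases before its RefSeq start (GRCh38.p14, chr5:138465229-138465478, plus strand) are shown because they hold a pair of CArG boxes, the motif bound by serum response factor, in capitals. Their first bases lie 105 and 83 bases before the start.
EGR1: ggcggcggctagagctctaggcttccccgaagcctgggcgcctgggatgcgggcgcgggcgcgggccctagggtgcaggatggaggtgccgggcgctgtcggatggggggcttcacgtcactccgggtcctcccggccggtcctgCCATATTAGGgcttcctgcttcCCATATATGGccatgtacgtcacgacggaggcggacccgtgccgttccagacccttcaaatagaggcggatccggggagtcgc
A CArG box on either strand was found in 1.16% of 35116 RefSeq promoter windows of the same length. The match is a description of the sequence, and binding was not measured. SRF itself, the serum response factor gene, stood at 70.4 and 65.0 CPM and then at 88.3 and 91.8 CPM and was not called (adjusted p = 0.138).

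The other EGR genes rose more than EGR1 in fold. EGR2 went from 11.1 and 11.4 CPM to 75.5 and 81.1 CPM (log2 2.80 ± 0.11), and EGR3 from 27.0 and 30.0 CPM to 187 and 189 CPM (log2 2.72 ± 0.13). EGR4 went from 0.317 and 0.516 CPM to 5.94 and 6.33 CPM (log2 3.88 ± 0.30). All 4 EGR genes had 1.5 h libraries above both 0.5 h libraries. The nuclear receptors of the NR4A group differed among themselves. NR4A3 rose from 0.423 and 0.860 CPM to 13.5 and 11.1 CPM (log2 4.26 ± 0.27) and NR4A1 from 26.3 and 25.1 CPM to 359 and 304 CPM (log2 3.69 ± 0.15). NR4A2 rose by a log2 fold change of 0.95 ± 0.10, from 9.32 and 9.60 CPM to 17.9 and 18.6 CPM, without overlap between the groups.

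The AP-1 subunits, which pair as FOS and JUN proteins on DNA, all rose. FOSB was at 60.5 and 64.4 CPM and then 516 and 490 CPM (log2 3.01 ± 0.15). FOSL1 was at 43.5 and 48.3 CPM and then 203 and 220 CPM (log2 2.20 ± 0.21), and FOSL2 was at 9.67 and 9.35 CPM and then 34.2 and 30.5 CPM (log2 1.77 ± 0.11). FOS, JUN, JUNB and JUND rose less in fold, with log2 fold changes of 1.43 ± 0.11, 1.56 ± 0.12, 1.44 ± 0.17 and 1.35 ± 0.22. FOS had 131 and 133 CPM at 0.5 h and 352 and 360 CPM at 1.5 h, and JUN had 182 and 199 CPM and then 561 and 558 CPM. Among the Krüppel-like factors, KLF10 rose from 38.4 and 34.0 CPM to 327 and 316 CPM (log2 3.15 ± 0.10) and KLF6 from 95.3 and 94.4 CPM to 542 and 516 CPM (log2 2.48 ± 0.10). KLF4 had 1.32 and 1.29 CPM and then 2.04 and 1.87 CPM and was not called (adjusted p = 0.149).

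MYC, the growth-promoting transcription factor, was the list's member that fell, from 132 and 148 CPM to 63.9 and 76.4 CPM (log2 -1.0 ± 0.19, adjusted p = 0.0053). Its groups did not overlap. The call was lost without 0.5 h replicate 2 (adjusted p = 0.057) and without 1.5 h replicate 1 (adjusted p = 0.095).

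Of 19 delayed-early transcription regulators, 10 rose and 3 fell (against 4.11% and 1.67% of all genes), with a median log2 fold change of 0.56. BHLHE40, a circadian and stress repressor, rose from 72.7 and 74.9 CPM to 577 and 498 CPM (log2 2.86 ± 0.15, adjusted p = 3.96e-08). CSRNP1, a nuclear protein induced by AXIN1, rose from 32.5 and 32.8 CPM to 241 and 219 CPM (log2 2.82 ± 0.13), and SERTAD1, a cyclin-dependent kinase regulator, from 9.90 and 8.28 CPM to 64.8 and 54.3 CPM (log2 2.71 ± 0.20). NAB2, a corepressor that binds EGR proteins, rose from 12.2 and 10.8 CPM to 82.9 and 65.8 CPM (log2 2.70 ± 0.15), and its relative NAB1 rose by a log2 fold change of 0.93 ± 0.17. The members that fell were ID1 and ID3, inhibitors of basic helix-loop-helix factors, and CITED2, a CBP/p300-binding coregulator. ID1 had 17.6 and 16.6 CPM at 0.5 h and 7.84 and 10.3 CPM at 1.5 h (log2 -0.91 ± 0.20, adjusted p = 0.0149), while ID3 changed by -0.64 ± 0.16 and CITED2 by -0.49 ± 0.12 on the log2 scale. Leaving out 0.5 h replicate 1, 0.5 h replicate 2 or 1.5 h replicate 1 ended each of these 3 calls, with adjusted p from 0.066 to 0.222. Without 1.5 h replicate 2 the calls of ID3 (adjusted p = 0.15) and CITED2 (adjusted p = 0.195) ended too, and with counts derived from TPM that of CITED2 (log2 -0.33, adjusted p = 0.341).

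Of 18 ERK feedback genes, 11 rose and none fell (against 4.11% and 1.67% of all genes), with a median log2 fold change of 0.91. The lowest log2 fold change, -1.49, was that of a member not called. PHLDA1, a pleckstrin-homology-like protein of the ERK transcriptional output, rose from 10.2 and 10.9 CPM to 95.5 and 79.2 CPM (log2 3.05 ± 0.13). SPRY4, a Sprouty inhibitor of RAS-ERK signalling, rose from 63.4 and 61.7 CPM to 233 and 215 CPM (log2 1.84 ± 0.11). DUSP1, a nuclear phosphatase of ERK, JNK and p38, rose from 32.6 and 31.1 CPM to 122 and 111 CPM (log2 1.87 ± 0.15). The 1.5 h libraries lay clear of the 0.5 h libraries in all 3. DUSP5, a nuclear ERK phosphatase, rose by a log2 fold change of 1.71 ± 0.15 and DUSP8 by 2.28 ± 0.48, the latter from under 1 CPM. DUSP6, the cytoplasmic ERK phosphatase, had 0.291 and 0.258 CPM at 0.5 h and 0.308 and 0.357 CPM at 1.5 h and was not called (adjusted p = 0.907).

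None of the upstream signalling genes was called. Of 29 genes of the pathway from protein kinase C to ERK, edgeR called 0, against 5.77% of all genes. In edgeR 1 had an unadjusted p under 0.05, DESeq2 called 0, and the median log2 fold change was 0.04. PRKCB, a protein kinase C gene, was at 614 and 600 CPM and then 596 and 615 CPM. PRKCD had the largest fold change, 0.51 ± 0.25 on the log2 scale (adjusted p = 0.35), with 9.93 and 10.2 CPM at 0.5 h and 13.8 and 14.9 CPM at 1.5 h. It passed the threshold in edgeR with no low-count filter (adjusted p = 0.0101), without the 0 h libraries (0.0352) and in the 4 libraries alone (0.0065).

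Of 20 genes of the NF-kB pathway, 4 rose and none fell (against 4.11% and 1.67% of all genes). The median log2 fold change was 0.24. RELB, a subunit of the noncanonical pathway, rose from 0.898 and 1.49 CPM to 9.69 and 7.43 CPM (log2 2.85 ± 0.22, adjusted p = 2.49e-06). The inhibitors NFKBIA and NFKBIE, which hold NF-kB in the cytoplasm, rose from 14.1 and 13.2 CPM to 27.6 and 29.2 CPM (log2 1.06 ± 0.12) and from 9.30 and 7.97 CPM to 16.6 and 16.3 CPM (log2 0.93 ± 0.13). TNFAIP3, the deubiquitinase A20, rose by a log2 fold change of 0.49 ± 0.10. The other subunit genes did not pass the test. REL had 186 and 203 CPM and then 224 CPM in both libraries (adjusted p = 0.694), and it was called in the fit of the 4 libraries alone (adjusted p = 0.0337).

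Of 24 secreted ligands tested, 8 rose and none fell (against 4.11% and 1.67% of all genes). Their median log2 fold change was 0.41 (0.82 when genes under 10 counts in any library were left out). The lowest, -2.235, was that of a member not called. CXCL8 and its chemokine relatives led the list. CXCL2 rose from 16.7 and 18.3 CPM to 110 and 122 CPM (log2 2.73 ± 0.11), CXCL3 from 13.3 and 12.7 CPM to 114 and 118 CPM (log2 3.16 ± 0.10), and CXCL1 from 0.132 and 0.201 CPM to 1.15 and 1.46 CPM (log2 2.95 ± 0.35). CXCL1, CXCL2 and CXCL3 are similar in sequence, so the sharing of reads among them is uncertain. The ligands of the EGF receptor HBEGF and AREG rose from 1.24 and 1.20 CPM to 5.74 and 5.29 CPM (log2 2.17 ± 0.21) and from 5.92 and 6.22 CPM to 15.2 and 15.7 CPM (log2 1.35 ± 0.10). GDF15, a stress-induced cytokine, rose from 101 and 103 CPM to 280 and 284 CPM (log2 1.47 ± 0.18). VEGFA, an angiogenic growth factor, had 392.05 and 361 CPM and then 386 and 385 CPM, and was not called (adjusted p = 0.961). In the next step, which shares the 1.5 h libraries, 17 of the 24 were called higher and the median was 2.09, against 13% of all genes called higher.

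The start regions of NFKBIA, CXCL8, CXCL1, CXCL2 and CXCL3 were picked for display. Each holds the NF-kB motif GGAATTTCC, in capitals, on one of the strands. Other genes that rose, such as NFKBIE, TNFAIP3 and HBEGF, are not shown. The genes were picked, so the share of all windows given below is not a test of them, and binding was not measured. The sequences are from RefSeq (GRCh38.p14), written along the strand of the gene. The NFKBIA window is chr14:35404750-35404999 (minus strand), and the CXCL8 window, which ends where the annotated gene begins, is chr4:73740319-73740505 (plus strand) and also holds the AP-1 motif TGANTCA in capitals. For the other chemokines the 30 bases around the motif are shown, at chr4:73869305-73869334 (CXCL1, plus strand), chr4:74099253-74099282 (CXCL2, minus strand) and chr4:74038748-74038777 (CXCL3, minus strand).
NFKBIA: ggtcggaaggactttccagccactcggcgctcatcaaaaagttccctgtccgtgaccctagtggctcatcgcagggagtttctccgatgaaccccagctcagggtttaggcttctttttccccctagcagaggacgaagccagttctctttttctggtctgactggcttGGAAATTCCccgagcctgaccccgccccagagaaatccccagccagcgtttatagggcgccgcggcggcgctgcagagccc
CXCL8: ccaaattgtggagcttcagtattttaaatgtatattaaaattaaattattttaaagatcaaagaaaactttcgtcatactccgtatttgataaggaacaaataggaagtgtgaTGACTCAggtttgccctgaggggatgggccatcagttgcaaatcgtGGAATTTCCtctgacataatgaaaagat
CXCL1: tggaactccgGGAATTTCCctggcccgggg
CXCL2: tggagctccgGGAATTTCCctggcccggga
CXCL3: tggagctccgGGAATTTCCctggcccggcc
The NF-kB motif begins 81 bases before the RefSeq start in NFKBIA, 91 in CXCL8, 78 in CXCL1 and CXCL3 and 77 in CXCL2. In NFKBIA it lies on the opposite strand. The motif was present in 0.413% of all RefSeq promoter windows of 250 bases, and TGANTCA in 6.57%. Shares among called genes are not given, since only 76.7% of the called higher protein-coding genes matched the promoter table.

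Of 13 mRNA decay factors, 6 rose and none fell (against 4.11% and 1.67% of all genes), with a median log2 fold change of 0.44. After BTG2 the largest rise was that of ZFP36, tristetraprolin, which marks AU-rich transcripts for decay, from 29.8 and 32.4 CPM to 112 and 122 CPM (log2 1.91 ± 0.22). Its relatives ZFP36L1 and ZFP36L2 rose by 0.58 ± 0.14 and 0.54 ± 0.11 on the log2 scale. ZC3H12A, the ribonuclease regnase-1, rose from 14.4 and 13.2 CPM to 30.4 and 29.7 CPM (log2 1.12 ± 0.16). In these genes no 1.5 h library overlapped the 0.5 h group.

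Of 25 adhesion, protease and actin genes, 8 rose and 1 fell (against 4.11% and 1.67% of all genes). The median log2 fold change was 0.32. The urokinase PLAU rose from 11.7 and 11.2 CPM to 33.0 and 26.2 CPM (log2 1.37 ± 0.15), and its receptor PLAUR from 8.87 and 9.46 CPM to 28.3 and 25.5 CPM (log2 1.55 ± 0.14). TPM4, a tropomyosin, rose from 128 and 141 CPM to 315 and 350 CPM (log2 1.30 ± 0.12). ACTG1, cytoplasmic gamma-actin, rose from 929 and 948 CPM to 1552 and 1522 CPM (log2 0.71 ± 0.13). These 4 genes were higher in both 1.5 h libraries. ACTB, beta-actin, had 2035 and 1991 CPM and then 2651 and 2630 CPM and missed the threshold (edgeR adjusted p = 0.086). It passed in DESeq2 (adjusted p = 0.0141) and in edgeR with GC trends removed (0.00524) or in the 4 libraries alone (0.00219). ITGA5, the fibronectin receptor subunit, fell from 147 and 134 CPM to 99.9 and 100 CPM (log2 -0.49 ± 0.12, adjusted p = 0.0249), and the call was lost without any 1 of the 4 libraries, with adjusted p from 0.077 to 0.228, and with counts derived from TPM (log2 -0.27, adjusted p = 0.272).

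Of 18 survival and death genes, 4 rose and none fell (against 4.11% and 1.67% of all genes), and the median log2 fold change was -0.03. MCL1, a short-lived survival protein of the BCL2 family, rose from 603 and 552 CPM to 1652 and 1584 CPM (log2 1.49 ± 0.14, adjusted p = 1.2e-05). CDKN1A, the cell cycle inhibitor p21, rose from 13.1 and 14.8 CPM to 77.1 and 65.4 CPM (log2 2.35 ± 0.15). GADD45B and GADD45A, stress sensors that act on MAP kinases and the cell cycle, rose by 1.98 ± 0.14 and 1.01 ± 0.13 on the log2 scale. The members that rose act in survival or growth arrest, and no other BCL2-family gene on the list was called.

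The falls were led by TXNIP, the thioredoxin-interacting protein that also limits glucose uptake. TXNIP (chr1:145992435-145996600) had 512 and 485 CPM at 0.5 h and 143 and 160 CPM at 1.5 h (log2 -1.72 ± 0.11, adjusted p = 5.67e-07). ARRDC3, a related alpha-arrestin, fell from 101 and 94.5 CPM to 43.3 and 48.9 CPM (log2 -1.08 ± 0.17, adjusted p = 0.00169). Both 1.5 h libraries lay below both 0.5 h libraries in each gene. AC096947.1, a sense-intronic transcript inside NFIA (chr1:61124733-61125202), fell from 155 and 154 CPM to 52.7 and 49.9 CPM (log2 -1.59 ± 0.22). OTX1, a homeobox factor, fell from 8.0 and 8.20 CPM to 3.36 and 3.57 CPM (log2 -1.22 ± 0.18), and DNM1P51, a dynamin pseudogene whose reads may be shared with its copies, from 12.2 and 12.1 CPM to 4.82 and 4.79 CPM (log2 -1.34 ± 0.16). PARP8, CCDC144NL and OR10D3 were also among the 10 largest falls, at -1.38 ± 0.30, -1.24 ± 0.24 and -1.21 ± 0.27. The most abundant transcript of PARP8 spanned only 2.70 kb within the gene at chr5:50665899-50846522. That of CCDC144NL spanned only 1.56 kb within the gene at chr17:20836447-20896140, so a fall of the full-length mRNA was not shown for either gene. PARP8, CCDC144NL and OR10D3 lost their calls when single libraries were left out. Without 0.5 h replicate 1 their adjusted p was 0.133, 0.084 and 0.097, and without 1.5 h replicate 2 it was 0.143, 0.079 and 0.136.

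Zinc finger genes were frequent among the falls. Genes with a ZNF symbol were 44 of the 293 that fell (15.0%), 16 of the 721 that rose (2.22%) and 519 of all genes tested (2.96%). Of 246 zinc finger genes of chromosome 19, 25 fell and 7 rose (against 1.67% and 4.11% of all genes). Their median log2 fold change was -0.13. ZNF57 (chr19:2900898-2918476) fell from 9.30 and 8.74 CPM to 3.33 and 4.13 CPM (log2 -1.27 ± 0.20, adjusted p = 0.00125). ZNF449 on chromosome X fell by -1.22 ± 0.20 and ZKSCAN4, a zinc finger gene of chromosome 6, by -1.23 ± 0.17 on the log2 scale. Both 1.5 h libraries were below both 0.5 h libraries in all 3. Members that rose included ZNF274, which recruits a histone methyltransferase to zinc finger gene clusters, from 64.1 and 64.8 CPM to 120 and 109 CPM (log2 0.83 ± 0.09, adjusted p = 8.59e-05), and ZNF432, from 18.1 and 17.9 CPM to 37.7 and 34.4 CPM (log2 1.00 ± 0.15). The family has many near-identical stretches, so reads may be split among its members. The median transcript GC content was 47.6% in called falls, 53.6% in called rises and 49.1% in all genes, and the step's fold change correlated with GC content across 9975 genes at r = 0.121, a description with no test.

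Of 17 genes of the ATF4 stress response, 4 fell and 1 rose (against 1.67% and 4.11% of all genes). The median log2 fold change was -0.04. DDIT4, an inhibitor of mTORC1, fell from 386 and 377 CPM to 185 and 189 CPM (log2 -1.03 ± 0.12, adjusted p = 0.000156). CHAC1, which degrades glutathione, fell from 33.5 and 35.8 CPM to 13.9 and 16.9 CPM (log2 -1.17 ± 0.22), and STC2, a secreted glycoprotein, by -0.92 ± 0.11. ATF4 itself had 331 and 347 CPM and then 286 and 319 CPM and was not called (adjusted p = 0.499). DDIT3, the factor CHOP, rose from 69.2 and 68.4 CPM to 171 and 164 CPM (log2 1.28 ± 0.12, adjusted p = 1.44e-05). DDIT3 overlaps MARS1 and MBD6, and the sources used here do not state whether the counting used strand.

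Of 25 haematopoietic transcription factors, 3 fell and none rose, with a median log2 fold change of -0.14, against 1.67% of all genes called lower. MYB, a progenitor factor, fell from 269 and 268 CPM to 187 and 211 CPM (log2 -0.44 ± 0.09, adjusted p = 0.00671). KLF1, the erythroid Krüppel-like factor, fell from 38.1 and 38.8 CPM to 23.6 and 27.6 CPM (log2 -0.58 ± 0.15, adjusted p = 0.0376), and NFE2 from 74.0 and 73.7 CPM to 41.7 and 51.4 CPM (log2 -0.67 ± 0.13, adjusted p = 0.00826). The groups did not overlap in these genes. GATA2, a factor of progenitors and megakaryocytes, had 108 and 109 CPM and then 146 and 142 CPM and was not called (adjusted p = 0.19), and neither was GATA1 (adjusted p = 0.789).

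Of 12 megakaryocyte and platelet genes tested, edgeR called 0, against 5.77% of all genes. In edgeR 2 had an unadjusted p under 0.05 (both lower), DESeq2 called 0, and the median was 0.01. ITGA2B, the platelet integrin subunit, was at 46.4 and 46.1 CPM and then 45.6 and 46.8 CPM. The genes GP1BA, GP9, PF4, SELP, TREML1 and CLEC1B had at most 1 read in any of the 4 libraries and were not tested. Of 22 erythroid genes, edgeR called 0 (against 5.77% of all genes), 2 had an unadjusted p under 0.05 and DESeq2 called 1. Their median was -0.05. FECH, the last enzyme of haem synthesis, had 29.8 and 31.0 CPM and then 16.8 and 18.8 CPM (log2 -0.77 ± 0.25, edgeR adjusted p = 0.1). It passed the threshold in DESeq2 (adjusted p = 0.0497) and in edgeR with GC trends removed (0.0467), with no low-count filter (3.14e-05) or in the 4 libraries alone (0.000398). HBG2, a fetal globin gene whose annotated span overlaps 13 other tested genes, had 683 and 656 CPM and then 675 and 603 CPM (adjusted p = 0.958).

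Of 22 mitotic genes, 2 rose and none fell, with a median of 0.11, against 4.11% of all genes called higher. AURKA, a mitotic kinase, rose from 112 and 117 CPM to 171 and 174 CPM (log2 0.59 ± 0.09, adjusted p = 0.000827), and MKI67 by 0.41 ± 0.11 (adjusted p = 0.045). Of 84 cytosolic ribosomal protein genes, edgeR called 0 (against 5.77% of all genes), 0 had an unadjusted p under 0.05 and DESeq2 called 0. Their median was 0.05. Markers of other cell types gave 1 call of 11 tested (against 5.77% of all genes). It was CD14, at 0.132 and 0.143 CPM and then 0.504 and 0.416 CPM (adjusted p = 0.0303 in edgeR and 0.352 in DESeq2). The summed level of these markers was 150 and 153 CPM at 0.5 h and 141 and 153.5 CPM at 1.5 h, most of it from LYZ and EPCAM. The endothelial marker CDH5 was at 0 in 3 of the 4 libraries.

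**Figure D3:**
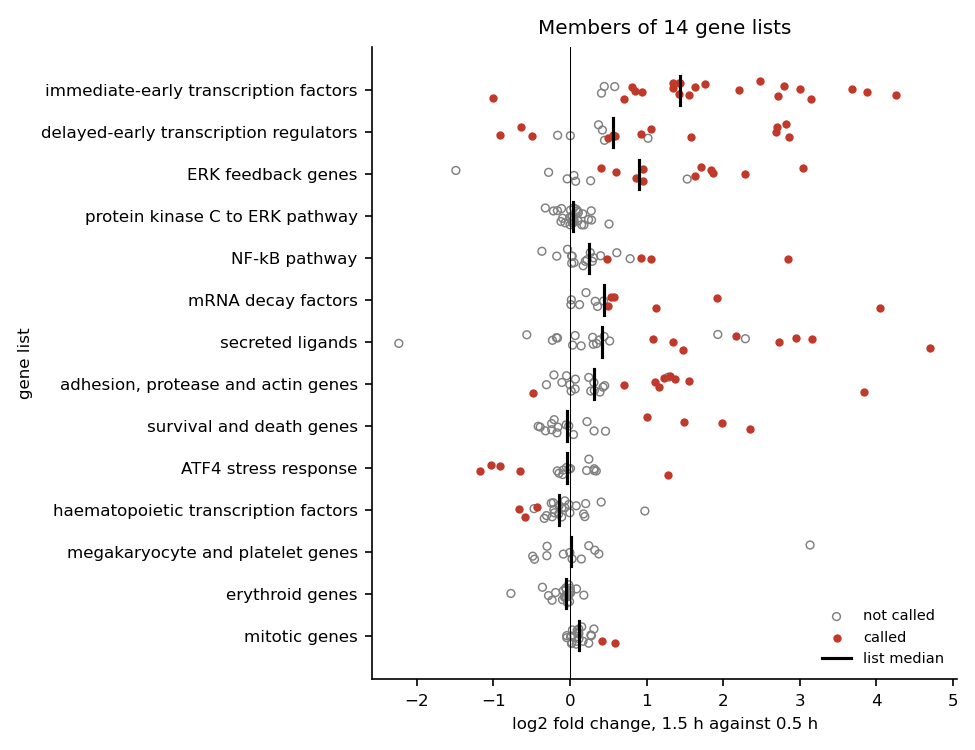
Log2 fold change of 1.5 h over 0.5 h for each tested member of 14 gene lists, filled where called, with the list median as a bar. Medians run from 1.44 for the immediate-early transcription factors and 0.91 for the ERK feedback genes to 0.04 for the kinases upstream and -0.14 for the haematopoietic factors.

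The step was then set against its neighbours by testing the difference itself, the change from 0.5 to 1.5 h minus the change from 1.5 to 3 h or from 0 to 0.5 h. The steps last 1, 1.5 and 0.5 h and share libraries, so a difference is one of change per step and not per hour. Against the next step, 1111 genes differed (6.33%), 560 with the more positive change in this step (3.19%) and 551 with the more negative (3.14%). Against the step before, 142 differed (0.809%), 119 with the more positive (0.678%) and 23 with the more negative change (0.131%). With a 0.5 h library left out the first count was 714 (replicate 1) or 693 (replicate 2), and with a 1.5 h library left out it was 431 (replicate 1) or 394 (replicate 2). The second count was 29 and 36 with the same 0.5 h libraries left out and 71 with 1.5 h replicate 1 left out. The 0 h libraries enter the second comparison, and there the fold change from 0 to 0.5 h correlated with GC content across 9975 genes at r = -0.761. The difference between replicates correlated with GC content at r = -0.727 at 0 h and 0.0142 at 0.5 h. With each library's GC trend removed the second count was 243, with 178 positive and 65 negative. The part of GC content in the differences of single genes is not given here.

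NR4A3 and KLF10 rose in this step and fell in the next. KLF10 was at 34.6 and 34.0 CPM at 0 h, 38.4 and 34.0 CPM at 0.5 h, 327 and 316 CPM at 1.5 h and 121 and 113 CPM at 3 h, so its log2 change was 3.15 and then -1.45 (difference 4.60, adjusted p = 2.23e-09). NR4A3 was at 13.5 and 11.1 CPM at 1.5 h and 6.36 and 7.24 CPM at 3 h (difference 5.12, adjusted p = 5.19e-06). YAP1, a Hippo pathway coactivator with a processed pseudogene copy, had 7.37 and 6.56 CPM, then 23.0 and 16.1 CPM, then 5.07 and 5.41 CPM (difference 3.39, adjusted p = 0.00151), and its rise in this step lost its call without 0.5 h replicate 1, 0.5 h replicate 2 or 1.5 h replicate 1 (adjusted p from 0.103 to 0.182). The 1.5 h libraries were the highest of the 8 in all 3 genes from 0 to 3 h.

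Other genes moved more in the next step. PDGFA, a platelet-derived growth factor chain, had 6.97 and 5.93 CPM at 0.5 h, 15.1 and 12.4 CPM at 1.5 h and 323 and 269 CPM at 3 h (difference -3.34, adjusted p = 3.67e-06). ADPRHL1, an ADP-ribosylhydrolase-like protein, had 5.28 and 6.08 CPM, 9.33 and 8.50 CPM and then 123 and 90.4 CPM (difference -2.93, adjusted p = 1.18e-05), and its small rise in this step lost its call without replicate 1 of either group (adjusted p of 0.19 and 0.15). ARRDC3 fell in this step and stood at 130 and 124 CPM at 3 h (difference -2.55, adjusted p = 0.000269). ARC rose by a log2 fold change of 5.61 in this step and 5.49 in the next, to 899 and 616 CPM at 3 h, and the difference was not called (adjusted p = 0.964).

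Against the step before, EGR3, EGR2, FOS and EGR1 had the larger change in the first 0.5 h. EGR3 rose by 7.10 and then 2.72 on the log2 scale (difference -4.38, adjusted p = 8.94e-06), from 0.184 and 0.225 CPM at 0 h. EGR2 rose by 6.44 and then 2.80 (difference -3.65, adjusted p = 3e-05), and FOS by 4.43 and then 1.43 (difference -3.00, adjusted p = 1.41e-06). EGR1, from 118 and 175 CPM at 0 h, rose by 3.20 and then 1.34 (difference -1.86, adjusted p = 0.0109). ARC, MDGA1 and TRIB1 were not called from 0 to 0.5 h, with log2 values of -0.50, -0.10 and 0.23, and differed by 6.11, 4.42 and 4.41 (adjusted p of 0.0072, 0.000164 and 2.55e-07). TXNIP had 423 and 391.6 CPM at 0 h and its change differed by -2.01 (adjusted p = 6.73e-05).

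**Figure D4:**
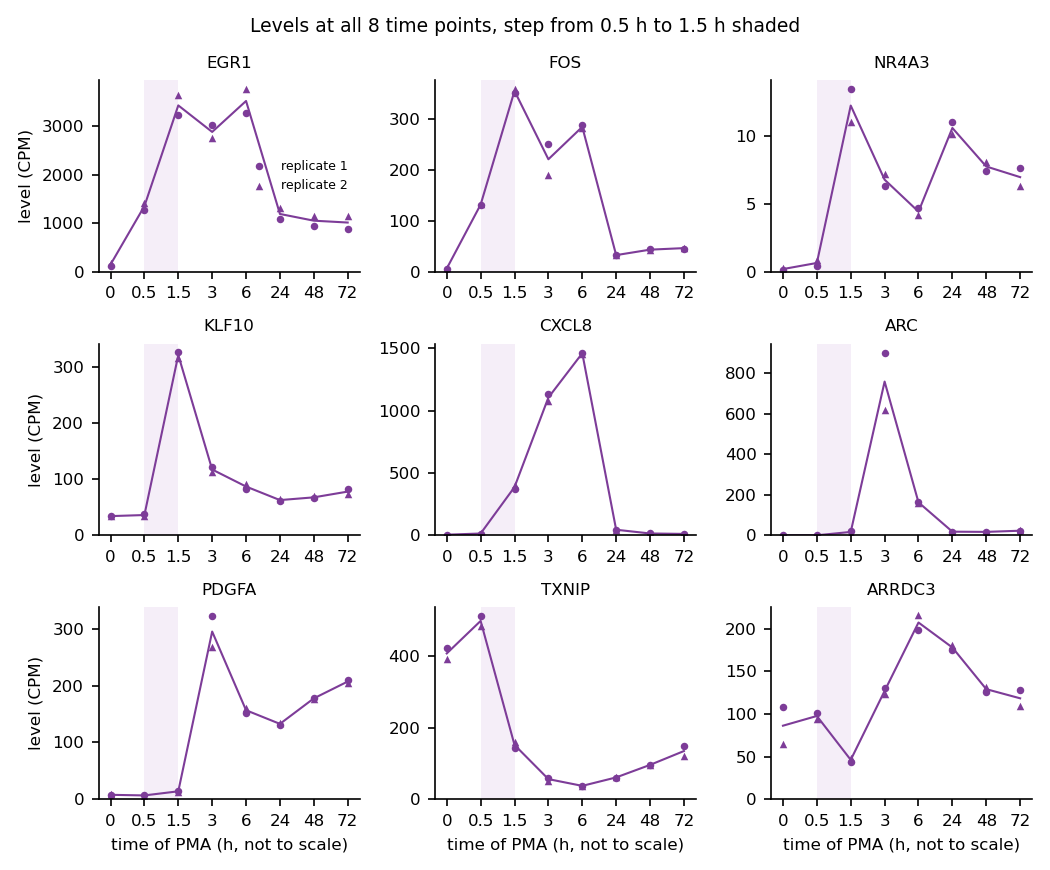
Level (CPM) of 9 genes at the 8 time points, with circles and triangles for replicates 1 and 2, lines through the means and the step shaded. KLF10 and NR4A3 are highest at 1.5 h, ARC and PDGFA are still low at 1.5 h and reach 899 and 616 CPM and 323 and 269 CPM at 3 h, and TXNIP drops within the step.

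Of the 721 genes that rose, 124 had their highest mean of the 8 time points at 1.5 h, 267 at 3 h, 208 at 6 h and 41, 14 and 67 at 24, 48 and 72 h. Of the 293 that fell, 52 had their lowest mean at 1.5 h, 137 at 3 h and 66 at 6 h. These counts use the libraries that made the calls and were not tested.

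The called genes had shorter median genomic spans than all genes tested, a feature the test did not use. The median genomic span of a gene's most abundant transcript was 16.6 kb in all genes tested, 11 kb in those that rose, 6.58 kb in those that rose by at least 2-fold and 10.8 kb in those that fell. Spans over 100 kb were found in 10.7% of all genes, 3.88% of rises and 1.71% of falls. Among protein-coding genes of at least 5 CPM, the medians were 22.6 kb in 10561 genes, 14.7 kb in 410 rises and 14.7 kb in 200 falls. These are descriptions with no test. Transcript GC content, given above, also differed between the groups, but it was higher in rises and lower in falls than in all genes.

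**Figure D5:**
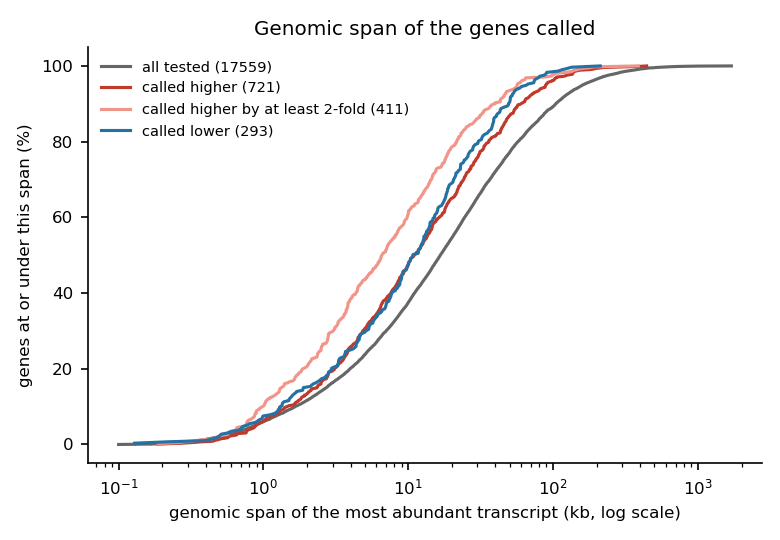
Cumulative share of genes (%) against the genomic span of the most abundant transcript (kb, log scale) for all genes tested, called rises, called rises of at least 2-fold and called falls. The called groups lie to the left of all genes, with medians of 11, 6.58 and 10.8 kb against 16.6 kb.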

How the data were processed

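Each library had a deposited table of 177456 Ensembl transcripts with an estimated count of reads and TPM, per the file headers. The submitters' processing notes name Trim Galore 0.4.3 and Salmon, and the builds hg19 and hg38, with no role for each. Estimated counts carry no normalization, as deposited by the authors, and the deposited TPM values are relative to transcript length and library. Transcripts were summed per gene with GENCODE annotation (94.1% matched, 3.01 to 3.12% of reads left out in the 4 libraries) and rounded.

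The test was the quasi-likelihood F-test of edgeR 4.0.16 (R 4.3.3, TMM, the filterByExpr filter) in a fit of all 16 libraries, which shares an estimate of the spread (common biological coefficient of variation 0.123, 8 residual and 5.28 prior degrees of freedom). The root-mean-square difference in log2 CPM between replicates was 0.403 at 0.5 h and 0.435 at 1.5 h. In the other groups it was larger, from 0.454 at 48 h to 0.5615 at 72 h. The contrast draws no level from the 0 h libraries. Standard errors are the absolute log2 fold change before shrinkage over the square root of F. On simulated counts for 17041 genes with 200 changed at 1.5 h, the test recovered 79% of 2-fold and 98% of 4-fold changes, and 6 of 183 calls were false. The changed genes were all above 1 CPM, with as many rises as falls. No change at other time points, GC trend or replicate effect was simulated, so these rates need not hold for the real libraries. DESeq2 1.42.0 and other settings were tried as alternatives.

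Members and lists were chosen with earlier results of these data known. Named genes were the 14 largest rises and 10 largest falls among called genes of at least 5 CPM without overlap, from each list the member with the largest change, the highest level and any called against the list's median, and the 3 largest differences in each direction from each neighbouring step. Other members of a list were named for their role after their values were seen. A floor of 3 reads was 0.0792 to 0.0892 CPM in the 4 libraries. It covers counting error alone, as PCR copies are not separate molecules. Promoter windows are from RefSeq. GP6 was not analysed here, and a few genes that this rule selects are not reported here.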

Additional observations from a re-analysis of the deposited data

Results flagged for a closer look

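The change in this step differed from that in a neighbouring step, by a test of the difference itself in edgeR, for the following 12 genes, which have the 3 largest differences in each direction for each neighbouring step among genes called in this step with a mean of at least 5 CPM. Against the step from 0 to 0.5 h, the log2 change from 0.5 to 1.5 h was larger by 6.11 for ARC, 4.42 for MDGA1 and 4.41 for TRIB1, and smaller for EGR3 (-4.38), EGR2 (-3.65) and FOS (-3.00). Against the step from 1.5 to 3 h, it was larger by 5.12 for NR4A3, 4.60 for KLF10 and 3.39 for YAP1, and lower for PDGFA (-3.34), ADPRHL1 (-2.93) and ARRDC3 (-2.55). No group here has more than 2 libraries, so no library was tested as standing apart from its group.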

How the results depend on the processing

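The 1014 calls (721 higher, 293 lower) became 1909 (1246, 663) with each library's GC trend removed, 2473 (1591, 882) in a fit of the 4 libraries alone, 540 (430, 110) at an adjusted p under 0.01, 150 (147, 3) against a 2-fold change, and 610 (410 higher) over protein-coding genes of at least 5 CPM, a setting chosen after seeing the data. Leaving out each of the 4 libraries in turn gave 427 to 616 calls, 350 to 504 higher and 77 to 112 lower. The 1111 genes that differed from the next step became 2298 with GC trends removed, 708 with counts derived from TPM, 575 at 0.01, 173 against a 2-fold change, and 394 to 714 with a library left out. The 142 that differed from the step before became 264 with DESeq2, 243 with GC trends removed, 572 with no low-count filter, 59 at 0.01, 34 against a 2-fold change, and 29 to 113 with a library left out. With the replicate number as a block there were 1144 calls, and with the block and GC trends removed 2348 (1494, 854), and 2793 and 358 for the neighbouring steps. The labels give replicates only a number, by which fragment length also differed, and same-numbered deviations correlated at 0.215 between the groups. FECH passed under the block (edgeR adjusted p = 0.0327). Beyond fewer samples or a stricter threshold, the cause of these moves was not tested. The 0.05 threshold and the test of no change were kept in 15 alternatives (so neither 0.01 nor the 2-fold test). Of 54 named genes called, 39 kept their call under each of these in which they were tested. A gene that an alternative's filter removed, such as EGR2 under at least 10 counts in every library, was not counted there. Another 15 genes lost their call under at least 1 alternative, and none changed direction. DESeq2 gave 1036 calls, 897 of them shared. Genes under about 1 CPM rest on few reads, which limits their folds.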

Other observations

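Some transcripts that lie inside other genes were called where the host gene was not, a pattern chosen after its values were seen. Of 661 tested genes that are not protein-coding and lie wholly within a protein-coding gene, 27 fell and 17 rose, against 1.67% lower and 4.11% higher among all genes tested. Of those that fell, 26 (96.3%) lay on the strand of the host, against 79% of the 661, and 8 share the host JAK2. None of the hosts of the falls was called, and among all 661 the host was called higher for 18 and lower for 6. Of those that rose, 8 lay on the strand of the host, and 5 hosts rose too.

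The densest group was inside JAK2, the kinase of cytokine receptors (chr9:4984390-5128183). Of 11 tested pseudogenes there, 8 fell, all but IGHEP2 named as copies of mitochondrial genes, with log2 fold changes of -2.11 to -1.68. Their summed level was 15.2 and 16.9 CPM at 0.5 h, 4.06 and 4.93 CPM at 1.5 h and 10.2 and 17.7 CPM at 3 h. JAK2 itself was at 81.7 and 80.1 CPM at 0.5 h and 74.3 and 80.2 CPM at 1.5 h (log2 -0.07 ± 0.14, edgeR adjusted p = 0.929). These pseudogenes have near-identical copies elsewhere, and how reads were shared among copies was not tested.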
